A study of Salmo salar with 8 samples.

Results

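Transglutaminases are calcium-dependent enzymes that join glutamine and lysine side chains of proteins into bonds that resist proteolysis. TGM2 is the tissue transglutaminase, which acts on matrix proteins and integrins outside the cell and binds GTP inside it, and in mammals it is widely used as a marker of M2 (alternatively activated) macrophages. F13A is the catalytic A subunit of coagulation factor XIII, which thrombin activates and which cross-links fibrin in a clot, and mammalian platelets and macrophages also hold it inside the cell. TGM1 is best known in mammals from keratinocytes, where it builds the cornified envelope.

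The probes described here were those to which the authors' list of probes differing between Day 1 and Day 5 gave the symbol TGM1, TGM2 or F13A. There were 5 such probes among the 2139 probes of that list used here and the 43689 probes of the array: 1 of TGM2 (C143R066), 3 of F13A (C073R121, C160R005 and C182R121) and 1 of TGM1 (C160R132). All 5 were measured on all 8 arrays and none was lost to a filter. They were chosen by the contrast between the days, so their differences between the days are given as a description and without a p-value. Probes of these genes outside the list carry no name in the tables used here, and members just outside the list's threshold therefore cannot be shown.

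The cells were adherent head kidney leukocytes (HKLs) of Atlantic salmon, isolated on a Percoll gradient from the organ that forms blood cells in teleost fish. The paper removed a further fish (Fish 5) after hybridization, citing a labelling error and, elsewhere, samples that did not cluster by day. Cells of the other 4 fish were cultured in L-15 medium with serum and antibiotic and received no further treatment. They were rinsed and sampled 24 h (Day 1) or 120 h (Day 5) after seeding, so each fish gave 1 sample of each day. Each sample carried Cy5 and shared its array with a common reference, pooled from all samples and labelled with Cy3, in the same dye orientation throughout, and a value is the log2 ratio of sample over reference.

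The 8 arrays were assigned to 3 slides by a number in the names of their scanned images, since the sample titles name no slide. Both arrays of Fish 1 were on slide 1 and both arrays of Fish 3 on slide 2, whereas Fish 2 and Fish 4 had their Day 1 arrays on slides 1 and 2 and their Day 5 arrays on slide 3, which held no Day 1 array. The median Cy5 signal of the probes was 176 to 594, and the detection limit of an array was set 2 SD above the mean Cy5 signal of its 153 negative control spots, which 40.4% to 51.3% of the probes passed. In a fit over 38695 probes with fish as a block (limma, Benjamini-Hochberg adjusted p below 0.05), 784 probes (2.03%) differed between the days, 422 (1.09%) higher and 362 (0.936%) lower at Day 5. Among the probes described here, 4 were past this threshold, TGM2 and 1 F13A probe as higher and 2 F13A probes as lower, and TGM1 was not. Nothing is read from that count, since the probes were selected on the same contrast.

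The transcripts behind 2 of the probes are shown because they tell the reader what the TGM2 probe and F13A probe C160R005 rest on. The contig of C160R005, the F13A probe that was higher at Day 5, is listed with a rainbow trout transcript and with no Atlantic salmon one. It opens a reading frame at base 112 that runs to its last base given, and 288 bases from that start are printed with the ATG in capitals. The contig of C143R066 matches the salmon gene that RefSeq (Ssal_v3.1) calls tgm2a and holds 1 open frame over all 399 bases given. That frame is already open at the first base, so no start codon was assigned, and the first 300 bases are printed in lower case throughout.
F13A C160R005: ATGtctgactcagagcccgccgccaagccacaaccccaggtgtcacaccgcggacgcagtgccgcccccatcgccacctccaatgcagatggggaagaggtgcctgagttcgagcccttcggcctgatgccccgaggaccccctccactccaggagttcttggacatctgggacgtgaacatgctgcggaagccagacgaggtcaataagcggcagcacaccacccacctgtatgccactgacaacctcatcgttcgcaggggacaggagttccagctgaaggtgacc
TGM2 C143R066: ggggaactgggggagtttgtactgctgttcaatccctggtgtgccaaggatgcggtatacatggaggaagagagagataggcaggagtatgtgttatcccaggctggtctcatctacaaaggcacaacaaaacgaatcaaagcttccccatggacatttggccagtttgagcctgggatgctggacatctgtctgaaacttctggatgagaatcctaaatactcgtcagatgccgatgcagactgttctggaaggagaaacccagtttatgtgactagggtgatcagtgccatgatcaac
The contigs of the other members could not be read here, so what the other F13A probes and the TGM1 probe rest on is not shown. The RefSeq genes of salmon were searched by symbol alone, which found f13a and, among transglutaminases, tgm1l1 (synonym tgm1), tgm2, tgm2a and tgm5l. Genes under other names were not looked for, so the number of such genes cannot be read from this search.

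TGM2 was higher at Day 5 in all 4 fish. Its log2 ratio at Day 1 was -2.13, -3.32, -3.05 and -1.21 in Fish 1 to Fish 4. At Day 5 it was -0.08, 0.91, -0.34 and -0.86 in the same order. The lowest Day 5 array was therefore above the highest Day 1 array, and both belonged to Fish 4. The mean went from -2.43 ± 0.96 to -0.09 ± 0.74 (SD, n = 4), a fitted difference of 2.34 with a standard error of 0.49, or 5.05-fold. Fish differed widely in the size of this change: 2.04, 4.24, 2.71 and 0.36 on the log2 scale. The Cy5 signal showed how close to the limit TGM2 lay at Day 1. It was 4.89, 1.01, 1.08 and 2.81 times the limit in Fish 1 to Fish 4 at Day 1. At Day 5 it was 3.39, 17.9, 5.47 and 4.96 times the limit. In Fish 2 and Fish 3 the Day 1 signal thus barely exceeded the limit. In Fish 1 the limit itself was higher at Day 5 (693) than at Day 1 (159), so the multiple fell although the signal rose from 779 to 2350.

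**Figure D1:**
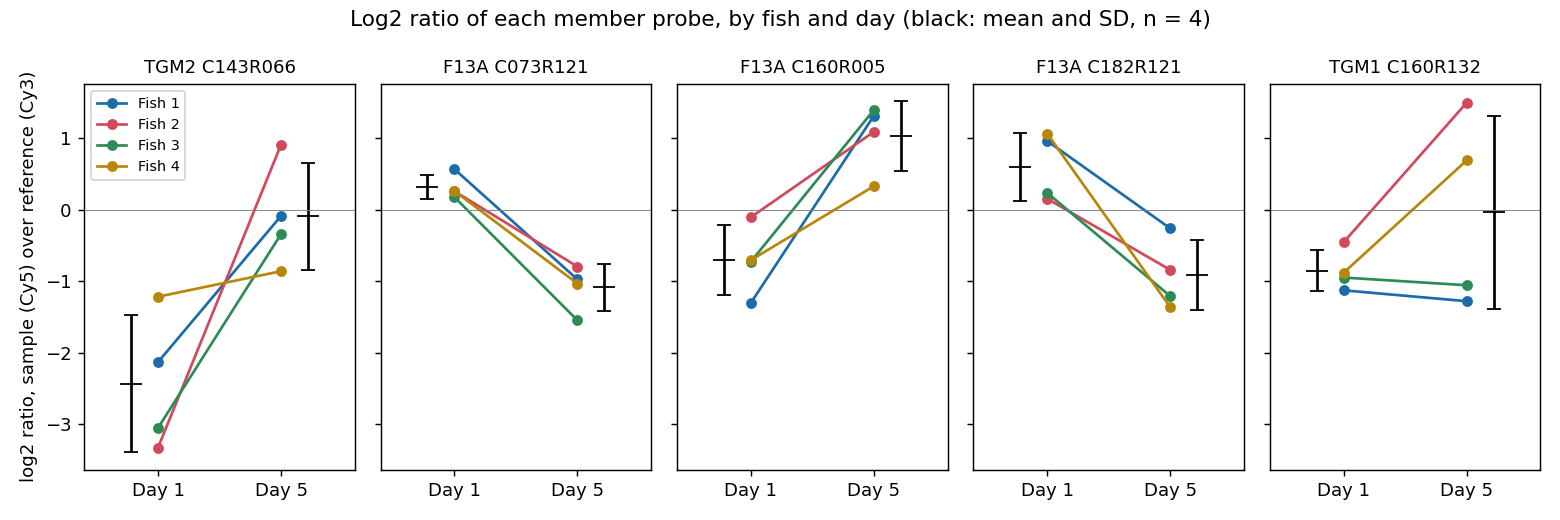
Log2 ratio of sample (Cy5) over common reference (Cy3) for each probe at Day 1 and Day 5, with 1 line per fish and the mean and SD of the 4 fish in black. TGM2 and F13A C160R005 rise in all 4 fish, F13A C073R121 and C182R121 fall in all 4, and TGM1 rises in Fish 2 and Fish 4 only.

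The 3 F13A probes went in opposite directions in the same cells. C160R005 was higher at Day 5 in all 4 fish. Its log2 ratio at Day 1 was -1.30, -0.10, -0.72 and -0.70 in Fish 1 to Fish 4. At Day 5 it was 1.32, 1.09, 1.40 and 0.33. The days did not overlap, and the mean moved from -0.71 ± 0.49 to 1.03 ± 0.49 (SD, n = 4), a fitted difference of 1.74 with a standard error of 0.35 (3.34-fold). The Cy5 signal of this probe stayed above the limit on all 8 arrays, by the smallest margin in Fish 4 at Day 1 (1.00 times the limit, 613 against 611).

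C182R121 was lower at Day 5 in all 4 fish and its signal was far above the limit on every array. Its log2 ratio at Day 1 was 0.96, 0.16, 0.24 and 1.07 in Fish 1 to Fish 4. At Day 5 it was -0.26, -0.84, -1.21 and -1.36. Again the days did not overlap, with a mean of 0.61 ± 0.48 at Day 1 and -0.92 ± 0.49 at Day 5 (SD, n = 4). The fitted difference was -1.52 with a standard error of 0.33, and the level was 2.87-fold lower at Day 5. Its Cy5 signal was 11606 to 23280 at Day 1 and 5313 to 6265 at Day 5, or 30.6 to 146 and 7.85 to 14.0 times the limit.

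C073R121 was also lower at Day 5 in all 4 fish, with the closest spacing of the fish among the 5 probes at Day 1. Its log2 ratio at Day 1 was 0.57, 0.26, 0.18 and 0.26 in Fish 1 to Fish 4. At Day 5 it was -0.97, -0.79, -1.54 and -1.03. The mean moved from 0.32 ± 0.17 to -1.09 ± 0.32 (SD, n = 4), without overlap, and the fitted difference was -1.40 with a standard error of 0.30 (2.64-fold lower). The Cy5 signal was above the limit on all 8 arrays.

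The gap between the F13A probes was present in each fish. The change of C160R005 exceeded that of C182R121 by 3.84, 2.19, 3.56 and 3.46 log2 units in Fish 1 to Fish 4 (mean 3.26 ± 0.73, SD). The change of C073R121 minus that of C160R005 had a mean of -3.14 ± 1.00 (SD, n = 4). C073R121 and C182R121, the 2 falling probes, differed in their change by -0.32, -0.06, -0.28 and 1.13, a mean of 0.12 ± 0.69 (SD, n = 4), so that only Fish 4 separated them by more than 1 log2 unit. Over the 8 arrays the log2 ratios of these 2 probes correlated at r = 0.90, and those of C160R005 with C073R121 and C182R121 at -0.92 and -0.80. After the day means were removed the same correlations were 0.46, -0.45 and -0.06. These values are a description over 8 arrays that share fish and slides. The probes were also chosen for differing between the days. Gaps between rising and falling probes, and high r of either sign over the 8 arrays, were thus to be had. Whether the 3 probes read 1 transcript, several transcripts or transcripts of different genes was not tested.

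TGM1 was dim and did not separate the days. Its log2 ratio at Day 1 was -1.12, -0.45, -0.95 and -0.88 in Fish 1 to Fish 4. At Day 5 it was -1.28, 1.50, -1.05 and 0.69. The groups overlapped, since Fish 1 and Fish 3 at Day 5 were below or within their Day 1 range while Fish 2 and Fish 4 were above it. The mean went from -0.85 ± 0.29 to -0.03 ± 1.35 (SD, n = 4), with a fitted difference of 0.82 and a standard error of 0.40. The Cy5 signal exceeded the limit on 1 of 4 arrays at Day 1 (Fish 1, 1.08 times the limit) and on 2 of 4 at Day 5 (Fish 2, 3.34 times, and Fish 4, 2.03 times). On the other 5 arrays it was 0.48 to 0.92 times the limit.

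**Figure D2:**
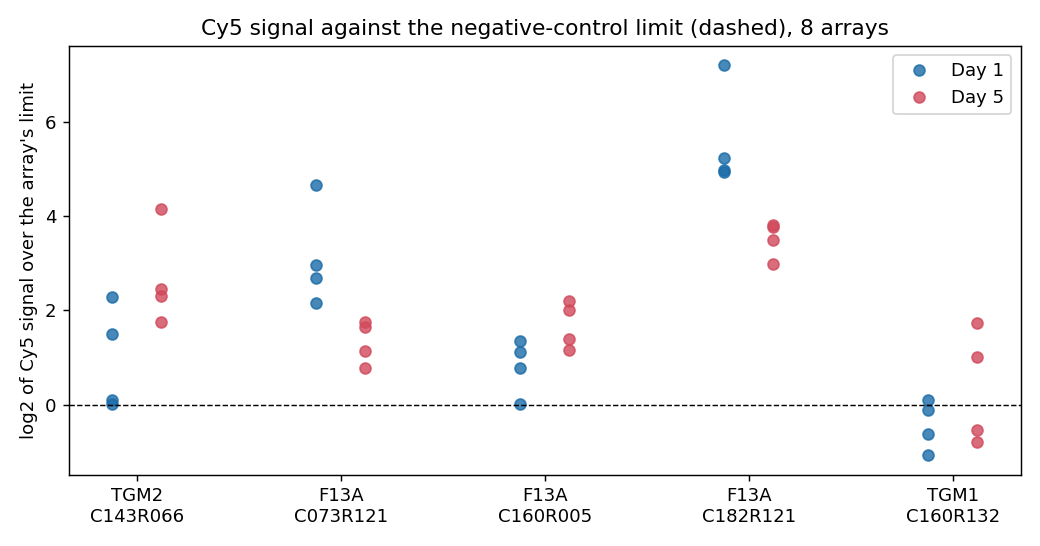
Cy5 signal of each probe divided by the detection limit of its array, on a log2 axis, with 1 point per array and the limit as a dashed line at 0. TGM1 lies below the line on 5 of 8 arrays, and every point of TGM2 and F13A lies above it, the lowest of them only just.

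The slides moved with the TGM1 values. The 2 fish in which TGM1 rose, Fish 2 (1.95) and Fish 4 (1.57), were those whose Day 5 arrays lay on slide 3. In Fish 1 (-0.15) and Fish 3 (-0.11), with both arrays on 1 slide, TGM1 was slightly lower at Day 5. The Cy5 signal there was 1.08 (Day 1) and 0.69 (Day 5) times the limit in Fish 1. In Fish 3 it was 0.48 (Day 1) and 0.58 (Day 5) times the limit. The differences in these fish thus compare signals near or under the limit. The mean difference was -0.13 within a slide and 1.76 across slides, a gap of 1.89. Of the 26008 probes with all 8 values, at any intensity, 1.22% had a gap at least as large in either direction. In Fish 2 and Fish 4, slide 3 and Day 5 cannot be told apart. In the authors' processed log2 ratios, in which missing values had been imputed, the TGM1 differences were 1.96, 2.58, 0.31 and 2.17 in Fish 1 to Fish 4, so TGM1 was higher at Day 5 in all 4 fish of that table. Fish 1 and Fish 3, whose arrays shared a slide, thus had the opposite sign there to the values computed here, and the pattern by slide rests on the latter.

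The other probes kept their direction within a slide and across slides. TGM2 differed by 2.38 within a slide and 2.30 across slides. The latter is the mean of 4.24 (Fish 2) and 0.36 (Fish 4), the largest and smallest changes among the fish. The F13A probes differed by 2.37 and 1.11 (C160R005), -1.33 and -1.71 (C182R121) and -1.63 and -1.17 (C073R121). C160R005 had the widest gap of these, and 8.24% of the probes had one as large.

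**Figure D3:**
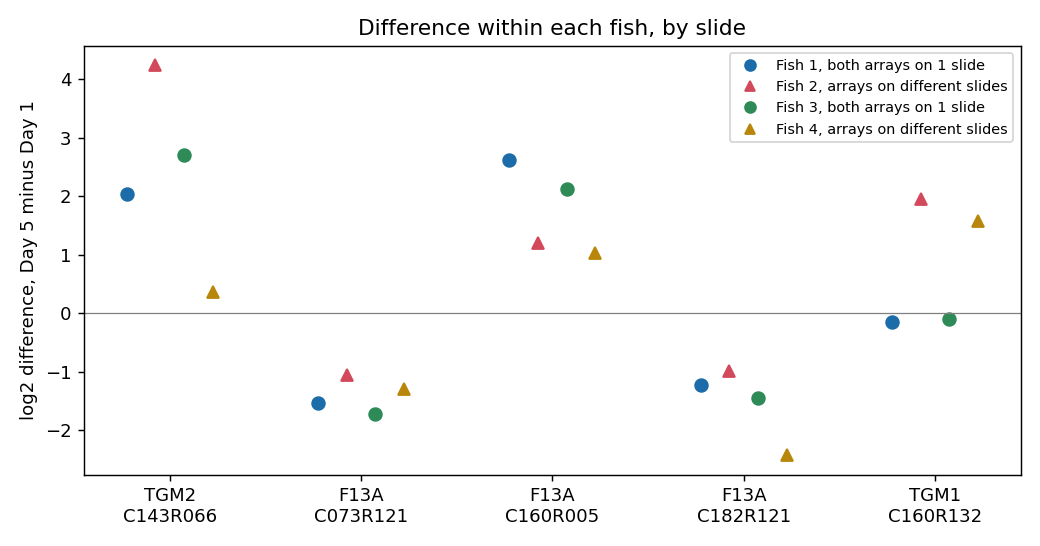
Log2 difference between Day 5 and Day 1 within each fish, with circles for fish whose arrays shared a slide and triangles for fish whose arrays did not. TGM1 is near 0 for both circles and above 1.5 for both triangles, whereas each TGM2 and F13A probe has all 4 points on 1 side of 0.

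Differences between the fish did not enter the choice of the probes and could be tested. Both arrays of Fish 1 lay on slide 1 and both of Fish 3 on slide 2, and the fit held no slide term. Fish and slide therefore cannot be fully told apart by this test. By an F test over the fish coefficients of the same fit, 0 of 38156 probes (0%) passed an adjusted p of 0.05, and 1662 (4.36%) had an unadjusted p below 0.05. None of the probes of TGM2, F13A and TGM1 passed. Their adjusted p in this limma fit was 1.00 in each case. Each fish mean rests on 2 arrays. In simulated data this test missed all of the smaller fish effects planted, although these were severalfold. It found most of them only when they were made far larger. The test therefore says little about how alike the fish were.

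Other genes that belong to the clotting and matrix reactions of these enzymes were looked up by symbol. Their names also come from the list of probes chosen by the contrast between the days, so the counts describe that list and are no independent evidence of a direction. Across all named probes that could be fitted (1984), 1059 were higher and 925 lower at Day 5 and 671 were past the threshold. Of 33 coagulation and fibrinolysis symbols, 3 had a probe, and the 4 probes divided evenly between directions, with 1 past the threshold as higher and 2 as lower. ANXA2, a receptor for plasminogen activation, was lower by a log2 difference of -2.01 (standard error 0.45), and TFPI2, a Kunitz-type protease inhibitor, by -1.38 (0.32). PLAT, the tissue plasminogen activator, was higher on C163R027 (1.68, standard error 0.34), and its second probe had 0.85 with 2 fish up and 2 down.

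Of 19 symbols of known substrates or partners of transglutaminases, 9 had a probe. Of their 21 probes, 13 were higher and 8 lower, with 5 past the threshold in each direction and a median difference of 1.24. MFGE8, a bridge between phagocytes and dying cells, had the largest (3.07, standard error 0.39). ITGA5, the alpha chain of the fibronectin receptor, was also higher (2.07, 0.39), and ITGA4, the alpha chain of another fibronectin-binding integrin, was lower (-1.58, 0.33). Fibronectin itself (FN1), a substrate that TGM2 binds, had a difference of 1.29 (standard error 0.35), with all 4 fish higher, and was not past the threshold. TIMP2, a metalloprotease inhibitor, had 8 probes with differences from -2.45 to 1.36. Of these, 6 were lower, 4 of them past the threshold, and neither of the 2 with a positive difference passed it. The 5 probes of TGFBI, a matrix protein, had differences of 1.07 to 1.42, and 2 of them passed.

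Of the 12 mammalian M2 genes looked up, 5 had a probe. Their 14 probes had a median difference of 1.46, with 10 higher (8 past the threshold) and 4 lower (none past it). Those past it were probes of MRC1, CHIA and SOCS1, and the CD209 probes had differences from -1.93 to 1.35. MRC1, the mannose receptor, was higher on all 5 of its probes, by 0.89 to 2.49, and both probes of ARG1, the enzyme that cleaves arginine, had negative differences (-1.32 and -1.44). For the cornified envelope, in which TGM1 acts in mammals, 2 of 6 symbols had a probe: JUP, a junction protein, was higher (2.17, standard error 0.42), and the 3 probes of DSP, a desmosomal protein, had differences of -1.02 to -1.42 with none past the threshold.

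**Figure D4:**
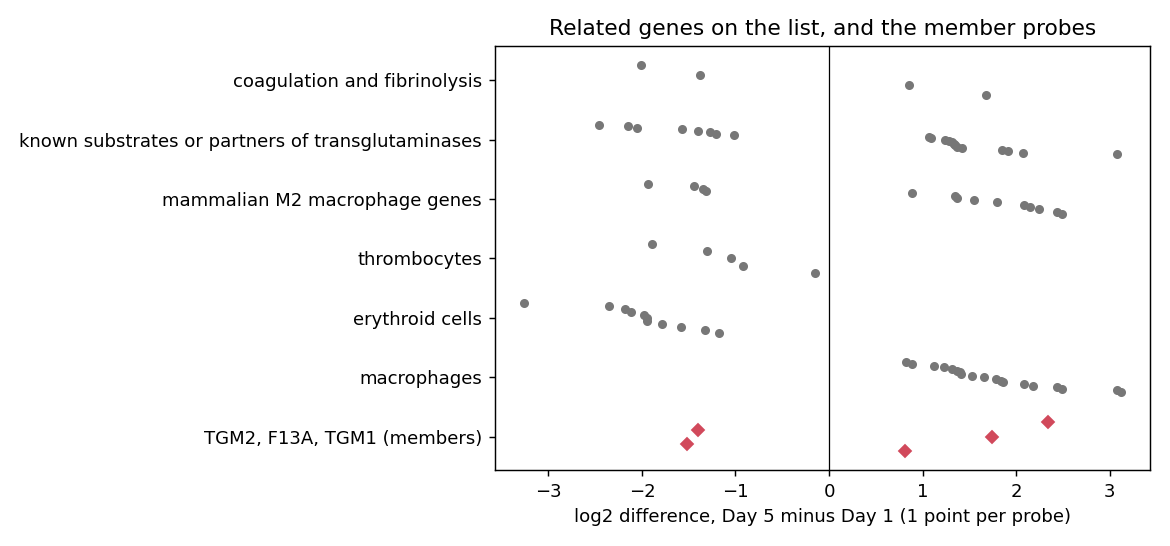
Log2 difference between Day 5 and Day 1 for each probe of the gene groups looked up (grey) and for the probes of TGM2, F13A and TGM1 (red). Coagulation and substrate probes fall on both sides of 0, thrombocyte and erythroid probes below it and macrophage probes above it. The thrombocyte probe of RASGRP2 lies close to 0 (-0.15).

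Markers of other blood cells were looked up by symbol in the same list. Their probes were thus also chosen by the contrast between the days, and markers that did not differ could not appear. In bulk samples, fewer cells of a type and less RNA per cell cannot be told apart. Of 12 thrombocyte symbols, 4 had a probe. All 5 probes had a fitted difference below 0, with a median of -1.05 and none past the threshold. That of RASGRP2 was only -0.15 (standard error 0.52), with 2 fish measured on both days, 1 higher and 1 lower. At Day 1 the mean log2 ratio of the thrombocyte probes ranged over the arrays from 0.01 to 0.89. At Day 5 it ranged from -1.07 to -0.28. These array means, and those below, cover only the probes measured on each array, which were not always the same set. Both probes of ITGA2B, the alpha chain of the fibrinogen receptor of thrombocytes, were above the limit on 4 of 4 arrays at Day 1 and 0 of 4 at Day 5. Erythroid markers (6 of 10 symbols, 11 probes) were lower on every probe, 9 past the threshold, with array means of -0.01 to 1.17 at Day 1 and -1.87 to -1.17 at Day 5. Macrophage markers (5 of 10 symbols, 19 probes) were higher on every probe, 12 past the threshold, with array means of -1.33 to -1.10 at Day 1 and 0.27 to 0.79 at Day 5. The macrophage probes of MRC1 and MFGE8 were also counted in the lists of M2 genes and of substrates or partners. The part of these marker shifts in the TGM2 and F13A values was not tested.

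The named probes whose log2 ratios followed each member most closely were ranked by Pearson's r over the 8 arrays, among 1683 named probes with all values. For TGM2 they were TRIM35 (r = 0.96), IFI44 (0.95) and CYB5 (0.95), with differences between the days of 1.67, 1.95 and 1.67. The rising F13A probe was followed by STARD7 (r = 0.98) and by both probes of SCYB7 (0.98 and 0.97). The falling F13A probes did not share their closest neighbours: C073R121 had NPM (0.99), NOLA2 (0.98) and RRP9 (0.98), and C182R121 had STT3B (0.99), DRG1 (0.98) and GRK5 (0.98). TGM1 had ZDHHC6 (0.98), COPS7B (0.95) and PIP5KL1 (0.94), whose differences were 0.48, 0.37 and 0.48. The probes ranked were themselves chosen by the days, so high values of r were to be had for any member that separates them. TGM1 did not separate the days and was under the limit on most arrays. Its neighbours are also the best of 1683 over only 8 arrays, and whether they follow TGM1 beyond that ranking was not tested.

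Processing changed which probes were called but not the direction of TGM2 or F13A. Over 20 alternatives each, TGM2 ranged from 1.70 to 3.00, C160R005 from 1.41 to 2.37, C182R121 from -1.84 to -1.22 and C073R121 from -1.71 to -1.30. Some of the alternatives could not move these values. They were Aquantile normalization between arrays, the restriction to probes measured on all 8 arrays, and the fit without a replicate block. Leaving out 1 fish, or keeping Fish 1 and Fish 3 alone, could move these values but not reverse them, since all fish went the same way. TGM1 ranged from -0.32 to 1.76 over 19 alternatives and turned negative in the 3 that took the slide into account. Slide 3 held no Day 1 array, so these 3 rest wholly or mainly on Fish 1 and Fish 3 at Day 5. They give little weight to the 2 fish in which TGM1 rose and are not separate checks. No call of a member past the threshold held in every alternative. Without Fish 3, for example, 0 of the 5 probes were past it and 370 probes in all.

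**Figure D5:**
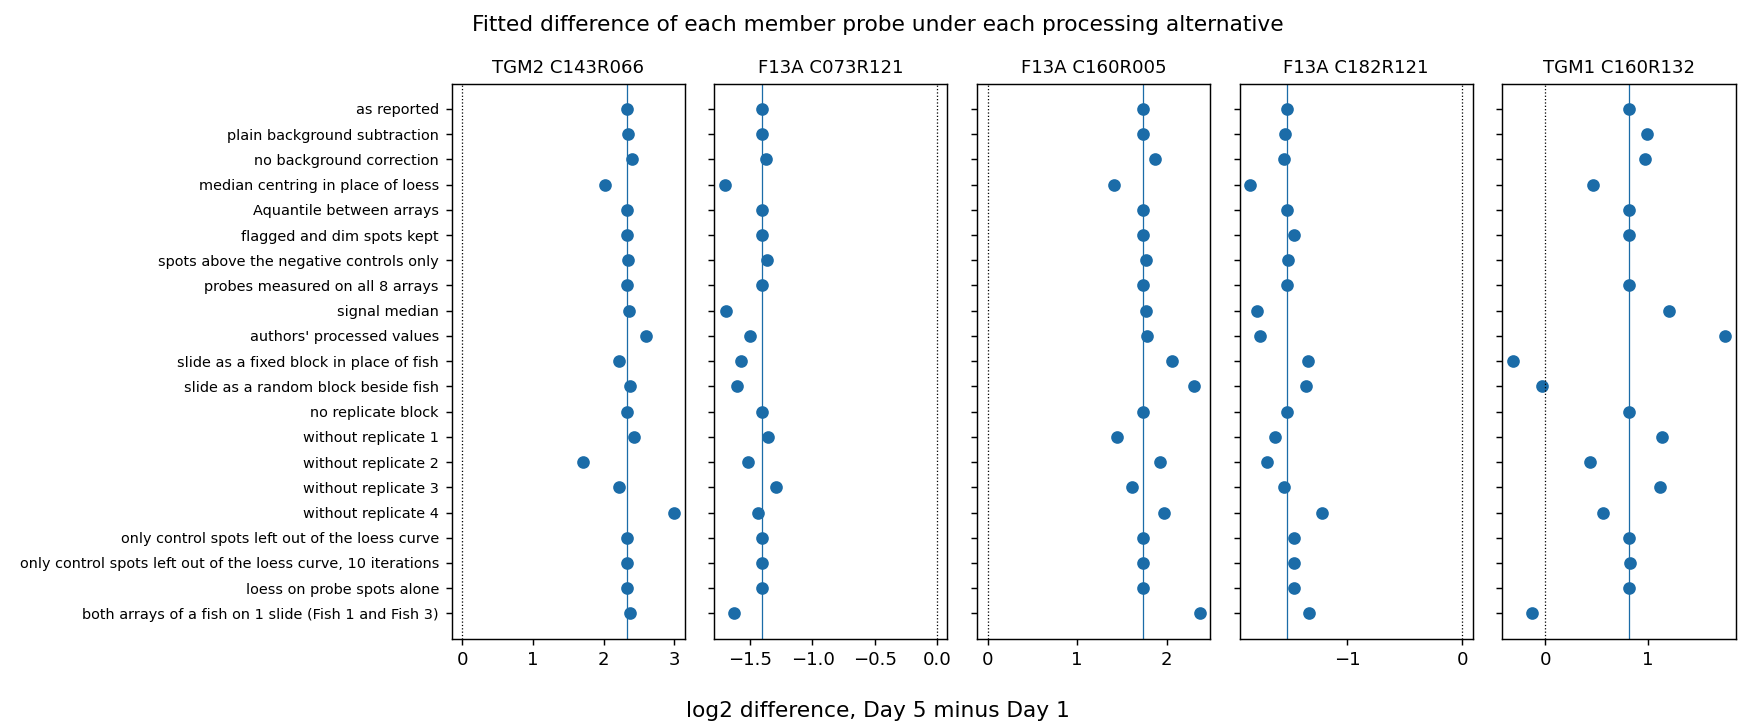
Fitted log2 difference between Day 5 and Day 1 of each probe (separate horizontal scales) under each processing alternative, with the reported value as a blue line and 0 dotted. TGM2 and the F13A probes stay on 1 side of 0, and TGM1 crosses it in the 3 alternatives that take the slide into account. These 3 rest wholly or mainly on Fish 1 and Fish 3 at Day 5.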

How the data were processed

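Adherent HKLs of 4 Atlantic salmon were compared between Day 1 and Day 5 on 8 two-colour arrays, grouped by the labels. The authors scanned the slides and deposited the intensity of each spot and channel (signal and local background) with quality flags, neither background-corrected nor normalized. The authors also deposited processed log2 ratios (18108 probes; background-corrected, loess-normalized, missing values imputed), used here as an alternative. The authors' fold changes and q-values were not used; only the symbols of their list were. Intensities (signal mean, background median) were corrected with normexp (offset 50, which shrinks the differences of dim spots) and normalized by loess within arrays (R 4.3.3; limma 3.58.1; statmod 1.5.0). Flagged spots and spots not 2 SD above local background in both channels were set to missing, and probes missing on more than 2 arrays were left out. Control, flagged and dim spots were also kept out of the loess curve; this weighting was adopted after the counts of calls under other weightings had been seen, because it gave the count of an earlier analysis of these files. The days were compared in limma (lmFit, eBayes), fish being the block, and p-values were adjusted by Benjamini-Hochberg (0.05) over all probes. The replicate block rests on both samples coming from 1 fish, since their deviations from the day means correlated at only -0.05, -0.08, 0.08 and 0.03 in Fish 1 to Fish 4. The number of arrays limits the precision. The named probes are all those of the 3 genes, with related genes and markers from lists of symbols; probes like a member are the 3 with the highest r. The members and lists were chosen with earlier results of these data known. The procedures were tested on simulated data. There the F test between fish missed all of the smaller fish effects, although these were severalfold, and found most of the far larger ones. Lists of B cell, T cell and neutrophil markers were also tabulated: 1 of 17, 0 of 6 and 0 of 3 probes were higher at Day 5.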

Additional observations from a re-analysis of the deposited data

How the results depend on the processing

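TGM2, C160R005 and C182R121 kept their direction and moved by less than the spread between fish in all 20 alternatives, and C073R121 in 18 of 20, with -1.71 under median centring and -1.70 with the signal median. The alternatives that could not move a member's value, or could not reverse its direction, are counted among these. TGM1 reversed to -0.32 with slide as a fixed block, -0.031 with slide as a random block and -0.13 in Fish 1 and Fish 3 alone, a setting chosen after seeing the data; leaving out 1 fish gave 0.44 to 1.14. It had no value when spots under the negative controls were removed. The reversals rest wholly or mainly on the Day 5 arrays of Fish 1 and Fish 3. The 784 calls over all probes became 0 with plain background subtraction or with no background correction, 461 with flagged and dim spots kept, 2 with the signal median, 80 with slide as a fixed block and 2676 with slide as a random block, and 315 (without Fish 4) to 721 (without Fish 1) when 1 fish was left out. The 4 calls among the members became 0 with plain subtraction, no correction, flagged spots kept, the signal median or slide as a fixed block, and 0 to 2 without 1 fish. Without the replicate block they stayed 4, with 918 calls over all probes. The count of probes differing between fish, 0, became 34 under median centring, 3 with the signal median, and 0 to 4 without 1 fish. The cause was not tested. Other weightings of the loess curve, added after seeing the data, gave 734, 726 and 739 calls, 4 of them members each time. Of 40 member spots, 35 exceeded the limit, and 31 and 37 under its alternatives. A comparison with probes of the same genes named by another table was not run, since none was given. TGM1 exceeded the limit on 3 of 8 arrays.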
